A study of Mus musculus with 24 samples.

Results

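The 10 genes described here belong to the hepatic acute phase response and to the IL-6 signal that drives it. They were taken by symbol, namely Saa1, Saa2, Saa3, Orm1, Itih4, Lbp, Il6ra, Il6st, Stat3 and Socs3. Each of the 10 was listed once in each of 3 expression tables, which hold 31053, 25876 and 20729 genes. All 24 libraries were made from liver cells of wild-type BALB/c mice aged 6 to 8 weeks, with no genetic change in any group. The hepatocyte table has 3 libraries each of primary hepatocytes (Pri-Hep) and of hepatocyte organoids (Hep-Orgs) at passages P1, P5 and P10. Pri-Hep were purified on a density gradient and depleted of cells that carry EpCAM, a surface protein of bile duct cells, and the Hep-Orgs of P1 to P10 were grown from them in hepatocyte medium with the Notch inhibitor DAPT and the glucocorticoid dexamethasone. The cholangiocyte table has 3 libraries each of cholangiocyte organoids (Cho-Orgs) at passages P0, P5 and P10. They were grown from EpCAM-positive cells in a medium with Wnt3a, Noggin and forskolin and without DAPT or dexamethasone. The Smart-Seq table has 1 library each of Hep-Orgs at P0 that were picked by shape as Grape-like, Intermediate or Round-like. By the study's account these shapes arose in hepatocyte medium before DAPT and dexamethasone were added to it, so the Smart-Seq and bulk Hep-Orgs also differ in a glucocorticoid. IL-6 was not among the listed components of either medium.

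In the acute phase response the liver changes its secreted proteins during infection or injury. IL-6 binds its receptor chain Il6ra, the complex engages the shared signalling chain gp130 (Il6st), and Janus kinases attached to gp130 phosphorylate Stat3, which enters the nucleus and switches on target genes. One early target is Socs3, which binds gp130 and shuts the signal down. Saa1 and Saa2 encode serum amyloid A proteins that hepatocytes release into blood, whereas Saa3 is also made by macrophages and by epithelia. Orm1 encodes alpha-1-acid glycoprotein, Itih4 encodes a heavy chain of the inter-alpha-trypsin inhibitor family, and Lbp encodes the protein that binds bacterial lipopolysaccharide. IL-1 acts together with IL-6 on several of these genes, through NF-kB and C/EBP factors.

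The 3 serum amyloid genes lie together on chromosome 7 of GRCm38, Saa3 at 46711998 to 46715700 (minus strand), Saa1 at 46740497 to 46742980 (minus strand) and Saa2 at 46751790 to 46754313 (plus strand). Their upstream sequence is shown because all 3 were higher at P0 of Cho-Orgs than later. That of Itih4 and Socs3 is shown because both fell as well and each holds a match to the letters bound by STAT factors. RefSeq promoter windows (GRCm38.p6) were given for 8 of the 10 members, not for Orm1 and Lbp. Each window runs from 250 bases before the start annotated by RefSeq to 50 bases after it, and the 250 bases before that start are printed 5′ to 3′ on the strand of the gene. The gene positions of the hepatocyte table differ for some members. There Socs3 spans 117966079 to 117970047, so its printed stretch lies inside the gene. The ends of the Saa2 and Saa3 stretches also reach into the gene. Capitals mark matches, on either strand, to TTCNNNGAA (STAT), TTGCNNAA (C/EBP) or GGNNTTTCC (NF-kB).
Saa1 (chr7:46742981-46743230, minus strand): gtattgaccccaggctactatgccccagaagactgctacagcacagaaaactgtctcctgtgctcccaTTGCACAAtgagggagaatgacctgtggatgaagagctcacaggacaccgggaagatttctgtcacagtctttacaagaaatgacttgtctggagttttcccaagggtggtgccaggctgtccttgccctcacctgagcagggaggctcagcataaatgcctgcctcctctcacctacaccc
Saa2 (chr7:46751583-46751832, plus strand): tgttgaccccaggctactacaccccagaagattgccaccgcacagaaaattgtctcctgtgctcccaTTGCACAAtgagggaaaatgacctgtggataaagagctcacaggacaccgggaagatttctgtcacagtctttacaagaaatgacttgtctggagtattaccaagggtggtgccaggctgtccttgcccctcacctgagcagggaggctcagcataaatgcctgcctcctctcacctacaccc
Saa3 (chr7:46715677-46715926, minus strand): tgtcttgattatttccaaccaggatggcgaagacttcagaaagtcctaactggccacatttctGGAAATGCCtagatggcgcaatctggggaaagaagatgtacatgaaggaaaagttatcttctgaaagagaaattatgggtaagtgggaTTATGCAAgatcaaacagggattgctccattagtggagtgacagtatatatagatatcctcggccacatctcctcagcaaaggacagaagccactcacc
Itih4 (chr14:30886226-30886475, plus strand): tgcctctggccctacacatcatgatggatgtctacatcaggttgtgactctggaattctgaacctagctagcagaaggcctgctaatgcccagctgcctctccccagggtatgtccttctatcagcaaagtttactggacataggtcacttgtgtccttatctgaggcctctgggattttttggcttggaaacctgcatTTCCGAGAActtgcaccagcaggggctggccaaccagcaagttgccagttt
Socs3 (chr11:117969367-117969616, minus strand): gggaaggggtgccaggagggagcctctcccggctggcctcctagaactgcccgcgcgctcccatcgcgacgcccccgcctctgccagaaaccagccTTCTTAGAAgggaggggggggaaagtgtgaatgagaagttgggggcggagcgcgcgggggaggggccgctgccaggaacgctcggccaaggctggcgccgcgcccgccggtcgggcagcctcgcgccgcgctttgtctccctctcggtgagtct
The windows of Saa1 and Saa2 were identical at 95.3% of 301 aligned positions, and both hold the C/EBP letters TTGCACAA, which begin 182 and 183 bases before the start. Saa3 was identical to Saa1 at 49.8% of 313 aligned positions, and holds TTATGCAA 99 bases and GGAAATGCC 187 bases before its start. Socs3 holds TTCTTAGAA 154 bases and Itih4 holds TTCCGAGAA 51 bases before the RefSeq start. None of the 3 motifs was in the windows of Il6ra, Il6st and Stat3. Among 32817 mouse windows of the same length, 8.29% hold the STAT letters, 10.8% the C/EBP letters and 5.83% the NF-kB letters, and the motifs do not overlap one another in the windows shown. The spliced transcripts of Saa1 and Saa2 were also alike, with 93.9% identity over 609 aligned positions, and 14.8% of the 50-base windows of Saa1 occur in another Saa gene. Of the 150-base windows, the length of the bulk reads, 0 of 460 of Saa1 and 0 of 457 of Saa2 are shared. The handling of reads that match both genes was not stated. Stat3 overlaps Stat5a on the opposite strand and Il6ra overlaps the antisense gene Gm42809. The bulk reads were strand-specific by the methods, while the strand setting used in counting was not stated.

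Hepatocyte libraries held between 14068906 and 27160365 fragments. The range was 37468000 to 39926000 for Cho-Orgs and 40035000 to 40376000 for Smart-Seq. Levels are FPKM, the fragments of a gene scaled to its length and to the depth of the library, so levels of different genes can be compared within a table. Median-ratio size factors, which scale libraries by their typical gene, were 1.00 in all 12 hepatocyte libraries. They were 0.957 to 1.04 in Cho-Orgs and 0.952 to 1.06 in Smart-Seq. Depth in the hepatocyte FPKM was thus a normalised one and not the plain sum of fragments. FPKM of 1 gene was not compared between tables, since the tables used different gene lengths, for example 9527 bases for Stat3 in the hepatocyte table and 4601 in the other tables. Of 10 hepatocyte markers, 5 or 6 had a mean of at least 1 FPKM in the groups labelled Pri-Hep and Hep-Orgs, where Cyp2e1 was between 0 and 0.0300 FPKM and Alb between 106 and 128 FPKM, while 7 of 8 cholangiocyte markers were above 1 FPKM with Krt19 between 229 and 247. The Pri-Hep libraries thus went against their label in these markers. Pairs of libraries of different groups in this table differed little more than pairs of 1 group, with a median chi-square per degree of freedom of 2.48 over 54 pairs against 2.17 over 12, where counting error alone gives a value near unity. Cho-Orgs P0 carried both programmes, with Alb at 4994 ± 406 FPKM (SD, n = 3) beside Krt19 at 1045 ± 83.5.

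Cho-Orgs from P0 to P10 ask how the members change as these organoids are passaged, from a P0 that carried hepatocyte markers beside cholangiocyte ones. Between P0 and P5 the acute phase genes fell, Orm1 by 118-fold, Itih4 by 226-fold, Saa1 by 11.8-fold, Saa3 by 10.4-fold and Lbp by 1.29-fold. At P10 Orm1 was listed at 0 in all 3 libraries and Itih4 had 1 fragment in each. The receptor chains moved the other way, Il6ra with its peak at P5 and Il6st with its rise after P5, and Stat3 and Socs3 fell. With limma on log2(FPKM + 1) and Benjamini-Hochberg adjustment over all 11593 genes tested, 1 member was higher and 7 were lower at P5 than at P0, against a background of 34.0% of genes called higher and 22.6% called lower. At P10 against P0, 2 were higher and 7 lower, with 41.0% and 31.3% of all genes. From P5 to P10, 1 was higher and 4 were lower, with 31.0% and 30.5% of all genes. In each case 9 of the 10 members were tested, and Saa2 did not reach 1 FPKM in 3 libraries. Itih4, Orm1 and Saa1 passed the filter through P0, where they were high, with 0, 1 and 1 of the 6 later libraries at 1 FPKM or more. These genes could hardly be called other than lower than P0. Il6ra passed the filter through the later passages, with 0 of 3 P0 libraries and 5 of 6 later ones at 1 FPKM or more. It could hardly be called other than higher than P0. The counts are therefore a description and no support. The median log2 change of the tested members was -1.07, -1.15 and -0.30 in the 3 comparisons, beside 0.06, 0.07 and 0.01 over all genes. With median-ratio scaling no member lost its call, but the split over all genes moved from 3938 higher and 2621 lower to 3087 and 3449 for P5 against P0, and from 4750 and 3634 to 4102 and 4163 for P10 against P0.

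**Figure D1:**
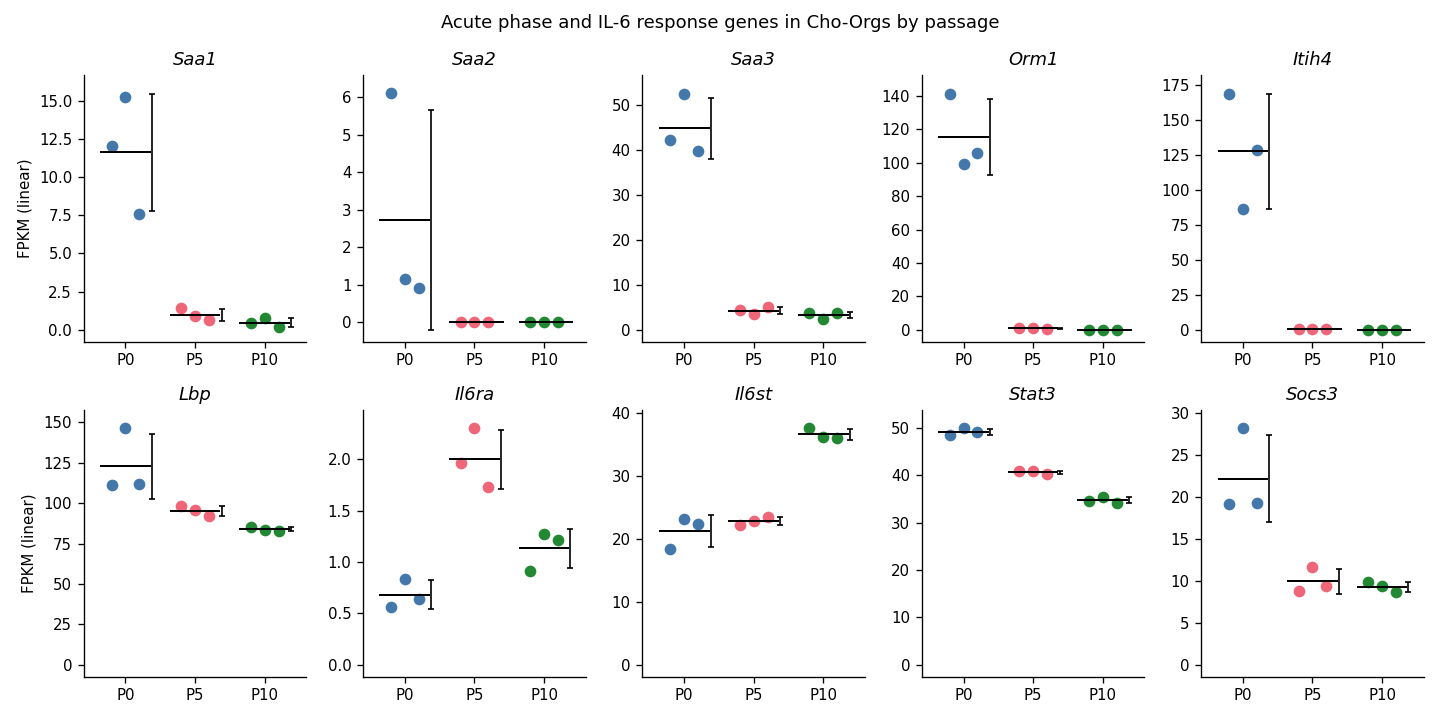
FPKM (linear axis, one scale per gene) of the 10 members in Cho-Orgs at P0, P5 and P10. Each point is 1 library, the horizontal line is the mean of 3 libraries and the bar is the SD. Saa1, Saa2, Saa3, Orm1 and Itih4 lie near the axis at P5 and P10, Il6ra peaks at P5 with a mean of 2.00 FPKM, and Il6st rises to 36.6 at P10.

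Saa3 had the highest level of the serum amyloid genes. Its 3 libraries were at 42.2, 52.5 and 39.7 FPKM at P0, at 4.39, 3.46 and 5.06 at P5 and at 3.80, 2.51 and 3.67 at P10. The P0 libraries stood clear of all others, and P5 and P10 overlapped. Relative to P0, the mean was 10.4-fold lower at P5 (log2 fold change -3.11, SE 0.15, adjusted p = 2.4e-07) and 13.5-fold lower at P10 (-3.41, adjusted p = 4.74e-08), whereas P10 and P5 differed by -0.30 (adjusted p = 0.12, 95% interval -0.64 to 0.05). The last comparison passed the threshold without replicate 2 (adjusted p = 0.0274).

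Saa1 was lower than Saa3 at every passage. Its libraries were at 12.1, 15.2 and 7.61 FPKM at P0, at 1.44, 0.887 and 0.630 at P5 and at 0.443, 0.773 and 0.193 at P10, the last of these from 14, 24 and 6 fragments. P0 was above all later libraries and P5 and P10 overlapped. The mean fell 11.8-fold to P5 (log2 fold change -2.64, SE 0.24, adjusted p = 1.35e-05) and 24.7-fold to P10 (-3.07, adjusted p = 1.71e-06). Between P5 and P10 the difference was -0.43 (adjusted p = 0.14, 95% interval -0.96 to 0.10), and it passed when the replicate number was fitted as a block (adjusted p = 0.0334).

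Saa2 was at 6.11, 1.15 and 0.90 FPKM at P0, from 201, 38 and 29 fragments, so that 1 library decided its mean. It was listed at 0 in all 6 libraries of P5 and P10. Taking 3 fragments per library as the limit that a count of 0 allows, Saa2 was at least 28.5-fold lower at P5 and at least 28.2-fold lower at P10, and no test was made because the gene did not pass the filter. The 3 serum amyloid genes were ordered at P0 with Saa3 at 44.8 ± 6.76, Saa1 at 11.6 ± 3.82 and Saa2 at 2.72 ± 2.94 FPKM (SD, n = 3). The lowest Saa1 value at P0, 7.61 FPKM, was above the highest Saa2 value, 6.11.

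Orm1, alpha-1-acid glycoprotein, fell to 0. It was at 141, 98.9 and 106 FPKM at P0 and ranked between 430 and 598 among the genes of these libraries. At P5 it was at 1.29, 0.909 and 0.737 FPKM, from 38, 27 and 22 fragments, and at P10 no fragment was counted. Relative to P0, the P5 mean was 118-fold lower (log2 fold change -5.87, SE 0.13, adjusted p = 2.16e-09). The P10 level was below that of P0 by at least 1129-fold and below that of P5 by at least 9.58-fold, with 3 fragments per library as the limit, and the adjusted p was 3.6e-10 and 0.000175. None of the 3 groups overlapped.

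Itih4 was at 168, 86.1 and 129 FPKM at P0 and at 0.560, 0.696 and 0.437 at P5. At P10 each library held 1 fragment. The P5 mean was 226-fold lower than the P0 mean (log2 fold change -6.31, SE 0.19, adjusted p = 1.16e-08). From P0 to P10 the pooled fragments gave a ratio of 15235, with a 95% interval from counting error of 5213 to 73880, and from P5 to P10 a ratio of 67.3 (22.7 to 329). The groups did not overlap, and the adjusted p of the last step was 0.0165. That last call was lost without replicate 3 (adjusted p = 0.0955) and when all genes above 0 were tested (adjusted p = 0.0536).

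Lbp changed far less than the other secreted proteins and was the most abundant member at P5 and P10. It was at 111, 146 and 112 FPKM at P0, at 98.3, 95.6 and 92.1 at P5 and at 85.3, 83.5 and 83.1 at P10. The 3 passages did not overlap, and the P0 libraries were spread most. The log2 fold change was -0.35 at P5 (SE 0.09, adjusted p = 0.00934) and -0.53 at P10 (SE 0.09, adjusted p = 0.000537) against P0. Without replicate 3 the first of these had an adjusted p of 0.0525. P10 and P5 differed by -0.18 (adjusted p = 0.12, 95% interval -0.39 to 0.03), and passed without replicate 2 (adjusted p = 0.0437) and when these 2 groups were fitted alone (0.00144).

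Markers of hepatocytes and of dividing cells fell over the same passages. The summed level of 10 hepatocyte markers was between 6381 and 7182 FPKM in the P0 libraries, 199.7 to 243 in those of P5 and 77.8 to 83.5 in those of P10. Of the 9 tested, 8 were lower at P10 than at P0 and none was higher, beside 31.3% and 41.0% of all genes. Of the 10 markers, 9 had a mean of at least 1 FPKM at P0 and 3 at P10. Those that passed the filter through P0 could hardly be called other than lower. Alb went from 4994 ± 406 to 79.5 ± 12.4 and 0.584 ± 0.0579 FPKM (SD, n = 3). Serpina1c, Cps1, Cyp2e1 and G6pc were at 0 in all P10 libraries. All 8 proliferation genes were lower at P10, beside the same 31.3% of all genes, with summed levels of 324 to 473.5 FPKM at P0 and 80.1 to 86.9 at P10. Of 10 Kupffer cell and macrophage markers, Clec4f, Vsig4 and Timd4 were at 0 in all Cho-Orgs P0 libraries, and Lyz2 was at 13.2 ± 3.17 FPKM at P0 and 0 later. The summed level of that list was 43.1 to 48.8 FPKM at P0, 72.1 to 77.3 at P5 and 10.1 to 10.5 at P10. Cd68, a lysosomal protein of macrophages, gave most of it, at 30.4 ± 3.79, 74.5 ± 2.59 and 9.53 ± 0.340 FPKM (SD, n = 3), and 7 of the 10, Lyz2 among them, were at 0 at P5. The 8 endothelial markers summed to at most 0.674 FPKM in any Cho-Orgs library, and the 8 stellate cell markers to 60.8 to 75.7 FPKM at P0, of which Reln gave 69.2 ± 7.80, 7.54 to 8.37 at P5 and 0.174 to 0.239 at P10. The 8 blood and neutrophil markers summed to 3.37 to 4.51 FPKM at P0 and 9.24 to 9.60 at P10. At P10 only 1 of them had a mean of at least 1 FPKM and gave most of the sum. Another 5, Ptprc, Hbb-bs, Hba-a1, S100a8 and Csf3r, were at 0 there, against 1 at P0. In bulk libraries, fewer cells of a type and less RNA per cell cannot be told apart, and the part of these cell types in the fall of the members was not tested.

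The receptor chains did not fall with the secreted proteins. Il6ra was low throughout, at 0.565, 0.838 and 0.637 FPKM at P0, at 1.97, 2.30 and 1.73 at P5 and at 0.916, 1.27 and 1.21 at P10. The 3 passages did not overlap, and P5 was highest. Since Il6ra passed the filter through P5 and P10, a call against P0 could hardly be other than higher. The log2 fold change was 0.84 at P5 against P0 (SE 0.10, adjusted p = 0.000103), a 2.94-fold higher mean, and -0.49 from P5 to P10 (adjusted p = 0.00226). P10 stayed above P0 by 0.34 (adjusted p = 0.0126), a call that was lost without replicate 3 (0.30, adjusted p = 0.109).

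Il6st was at 18.4, 23.1 and 22.3 FPKM at P0, at 22.3, 22.8 and 23.4 at P5 and at 37.5, 36.3 and 36.0 at P10. P0 and P5 overlapped and every P10 library was above both. P5 differed from P0 by 0.10 (adjusted p = 0.276, 95% interval -0.07 to 0.27). The log2 fold change was 0.76 at P10 against P0 (SE 0.08, adjusted p = 1.1e-05) and 0.66 against P5 (adjusted p = 5.95e-05). Per length, the mean level of Il6st at P10, 36.6 ± 0.820 FPKM, was far above that of Il6ra, 1.13 ± 0.190 (SD, n = 3).

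Stat3 fell at both steps. It was at 48.4, 49.8 and 49.0 FPKM at P0, at 40.8, 40.8 and 40.3 at P5 and at 34.4, 35.5 and 34.2 at P10, with no overlap between passages. The log2 fold change was -0.27 at P5 (SE 0.04, adjusted p = 0.000382) and -0.49 at P10 (adjusted p = 2.79e-06) against P0, and -0.22 from P5 to P10 (adjusted p = 0.00101).

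Socs3, the feedback inhibitor, was at 19.2, 28.2 and 19.3 FPKM at P0, at 8.80, 11.7 and 9.44 at P5 and at 9.84, 9.35 and 8.68 at P10. P0 was above all later libraries, and P5 and P10 overlapped. The log2 fold change was -1.07 at P5 (SE 0.14, adjusted p = 0.000186) and -1.15 at P10 (adjusted p = 5.29e-05), a 2.23-fold and a 2.39-fold lower mean than at P0. P10 and P5 differed by -0.09 (adjusted p = 0.632, 95% interval -0.41 to 0.24), and the sign turned without replicate 2 (0.02).

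**Figure D2:**
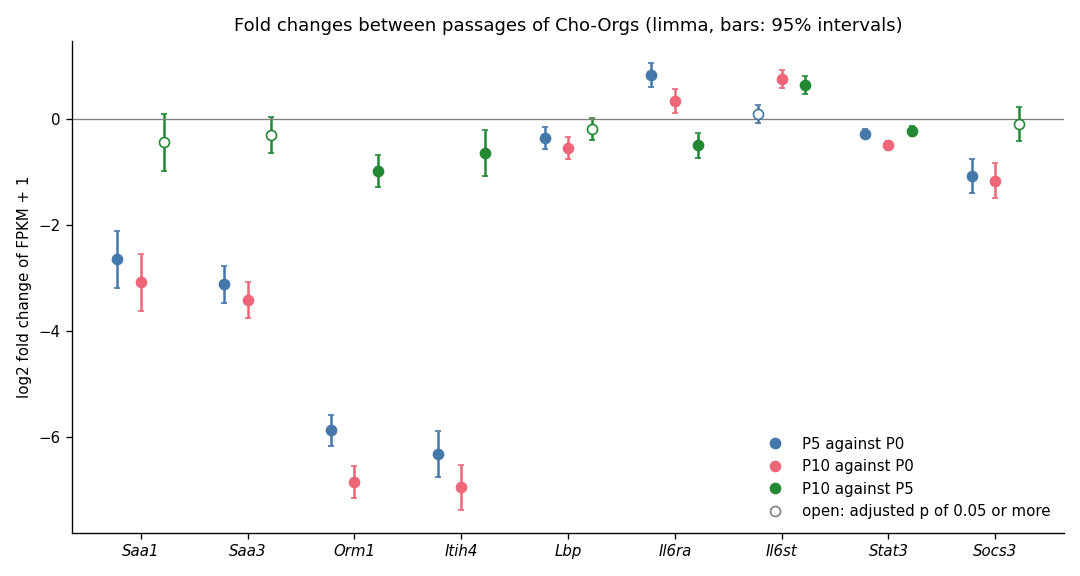
Log2 fold change of FPKM + 1 for the 9 members tested in Cho-Orgs, for P5 against P0, P10 against P0 and P10 against P5. Points are limma estimates from 3 libraries per passage, bars are 95% intervals, and open points have an adjusted p of 0.05 or more. The changes run from -6.94 for Itih4 at P10 against P0 to 0.84 for Il6ra at P5 against P0.

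Of the 8 ligands of the IL-6 family, 4 passed the filter in Cho-Orgs. Il6 itself was between 0 and 0.0928 FPKM in all 9 libraries, Osm was at 0 in all of them, and Il27 and Cntf stayed under 1 FPKM. Of 4 ligands tested at P10 against P0, 2 were higher and 2 lower, beside 41.0% and 31.3% of all genes. Clcf1, which signals through the ciliary neurotrophic factor receptor and gp130, rose from 12.2 ± 1.87 to 25.5 ± 1.06 FPKM (adjusted p = 3.9e-05), and Lif, the leukaemia inhibitory factor, from 2.73 ± 0.374 to 4.47 ± 0.0828 (adjusted p = 0.000148). Il11 fell from 1.85 ± 0.400 to 0.205 ± 0.0683 (adjusted p = 3.31e-06) and Ctf1, cardiotrophin, from 3.10 ± 0.722 to 0.655 ± 0.0502 (adjusted p = 1.85e-05). Both of these had a P10 mean under 1 FPKM. Of the 8 ligands, 4 had a mean of at least 1 FPKM in P0, against 2 in P10. A ligand that passed the filter through P0 could hardly be called other than lower, so the ligand counts are a description. Of the 3 other receptor genes tested, 2 were lower and none higher at P10, beside 31.3% and 41.0% of all genes. Lifr, which pairs with gp130 for Lif, fell by 0.42 on the log2 scale (adjusted p = 0.000286), and Osmr, the oncostatin M receptor, fell by 0.63 (adjusted p = 0.0078).

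Of 12 kinases, phosphatases and inhibitors tested at P10 against P0, 3 were higher and 5 lower, beside 41.0% and 31.3% of all genes, with a median log2 change of -0.20. The kinase Jak1 fell by 0.54 on the log2 scale (adjusted p = 3.75e-06), the phosphatase Ptpn6 by 0.81 (adjusted p = 3.5e-06) and Stat5b by 0.51 (adjusted p = 5.46e-05). The kinase Tyk2 rose by 0.51 (adjusted p = 5.48e-05), the inhibitor Socs2 by 0.66 (adjusted p = 0.00433) and Pias3, an inhibitor of Stat3, by 0.73 (adjusted p = 7.28e-06).

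Of 12 transcription factors and targets that Stat3 can induce, 7 were higher and 4 lower at P10 than at P0, beside the same 41.0% and 31.3% of all genes, with a median of 0.31. Myc rose from 32.3 ± 1.81 to 150.5 ± 1.37 FPKM (log2 fold change 2.19, adjusted p = 6.74e-10) and the kinase Pim1 from 7.52 ± 0.139 to 23.0 ± 0.375 (adjusted p = 9.91e-09). Cebpb and Irf1 rose by 0.55 (adjusted p = 0.0129) and 0.45 (adjusted p = 0.000118). Fos fell by 1.63 on the log2 scale (adjusted p = 0.000281) and Cebpd, a C/EBP factor of the acute phase response, fell by 1.05 (adjusted p = 0.000115). Junb fell by 0.28 (adjusted p = 0.00362) and Nfil3 by 0.34 (adjusted p = 0.00712). At P5 against P0, 6 of the 12 were higher and none lower, beside 34.0% and 22.6% of all genes. Cebpd was among them, at 12.8 ± 3.36 FPKM at P0, 16.8 ± 1.36 at P5 and 5.54 ± 0.498 at P10 (SD, n = 3), so that it rose first (log2 fold change 0.40, adjusted p = 0.041) while Socs3 fell. Under median-ratio scaling 3 of the 6 calls at P5 were lost, those of Cebpd, Fosl2 and Mcl1. With 1 call gained, 3 of the 12 were then higher and 1 lower, while TPM gave 7 higher and 0 lower.

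Other acute phase genes of hepatocytes fell in both classes. Of 23 positive acute phase genes tested, which rise in the response, 22 were lower and 1 was higher at P10 than at P0. The shares of all genes were 31.3% and 41.0%, and the median log2 change of the list was -3.99. Haptoglobin, Hp, went from 531 ± 47.7 to 0.177 ± 0.127 FPKM (adjusted p = 5.87e-12). The fibrinogen chains Fga, Fgb and Fgg had log2 fold changes of -7.09, -8.30 and -8.43 (adjusted p = 4.93e-09, 5.39e-10 and 9.74e-10), and the IL-1 antagonist Il1rn rose by 0.32 (adjusted p = 0.00654). All 8 negative acute phase genes, which drop in the response, were lower too, with a median of -5.05. At P0 all 24 listed positive genes and all 8 negative ones had a mean of at least 1 FPKM, against 11 and 4 at P10. Genes that passed the filter through P0 could hardly be called other than lower, so these counts are a description. Alb, Ahsg, Apoa1 and Trf had log2 fold changes of -11.62, -9.66, -6.46 and -5.41 (adjusted p = 3.86e-12, 1.42e-11, 2.64e-07 and 4.93e-09). The hepatocyte list shares 3 of its 10 genes with the negative acute phase list and 1, Fgb, with the positive one. Of 15 genes of IL-1, lipopolysaccharide and NF-kB signalling, 10 were higher and 3 lower, beside 41.0% and 31.3% of all genes, with a median of 0.65. Il1a rose from 0.0898 ± 0.0469 to 3.33 ± 0.383 FPKM (adjusted p = 4.06e-08), the NF-kB inhibitor Tnfaip3 by 1.05 (adjusted p = 5.67e-08), Tnf by 1.03 (adjusted p = 9.84e-06) and the lipopolysaccharide receptor Tlr4 by 0.92 (adjusted p = 9.36e-07). Il1a passed the filter through the later passages and could hardly be called lower. Il1rap, Il1r1 and Ly96 had changes of -0.83, -0.38 and -0.31 (adjusted p = 5.48e-06, 0.0172 and 0.00606). Of the 8 cholangiocyte markers, 3 were higher and 4 lower, beside the same 41.0% and 31.3% of all genes. Under median-ratio scaling no called gene of these lists turned direction at P10 against P0, and the call of Nfkb1 alone was lost.

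**Figure D3:**
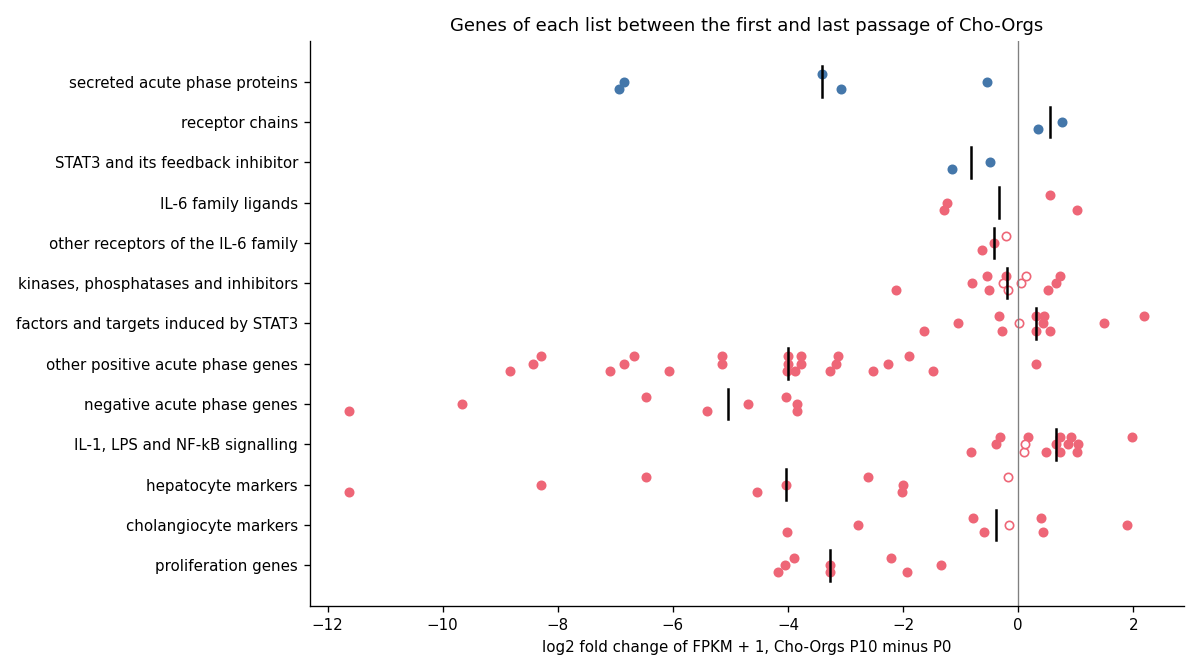
Log2 fold change of FPKM + 1 between P10 and P0 of Cho-Orgs for the members (blue) and for genes of the related lists (red). Each point is 1 tested gene, open points have an adjusted p of 0.05 or more, and black bars are list medians. The positive acute phase genes have a median of -3.99 and the negative ones of -5.05, beside 0.65 for IL-1, lipopolysaccharide and NF-kB signalling.

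The 3 Smart-Seq libraries compare the shapes of Hep-Orgs at P0, with 1 library each, so that no test was possible and intervals cover counting error only. Saa3 was the member with the highest level in all 3 libraries, and 8 members were higher and 1 lower in Grape-like than in Round-like by a log2 difference of at least 1. Of all 12595 genes with at least 1 FPKM in a library, 12.9% were higher and 8.82% lower by that much. In Intermediate against Round-like 4 members were higher and none lower, beside 3.85% and 2.54% of all genes. In Grape-like against Intermediate 3 were higher and 1 lower, beside 9.71% and 7.15%. The median log2 difference of the members was 1.52, 0.79 and 0.34 in the 3 comparisons, beside -0.13, -0.12 and 0.03 over all genes. Median-ratio scaling moved the median over all genes to 0.00 for Intermediate against Round-like and the split from 485 higher and 320 lower to 602 and 230.

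Saa3 was at 2716 FPKM in Grape-like, 1357 in Intermediate and 747 in Round-like, from 57736, 29086 and 15975 fragments, and ranked 9, 24 and 68 among all genes. The level in Grape-like was 3.64 times that in Round-like (95% interval 3.57 to 3.70). Saa1 was at 23.0, 19.9 and 5.28 FPKM in the same order, and Saa2 at 3.27, 2.28 and 0.511. Both followed the order of Saa3, with Grape-like 4.36 times (3.70 to 5.17) and 6.39 times (3.81 to 11.4) the level in Round-like. Saa2 in Round-like rests on 17 fragments.

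Orm1 was at 56.3 FPKM in Grape-like, 45.7 in Intermediate and 11.2 in Round-like, 5.01 times (4.46 to 5.63) higher in the first than in the last. Itih4 and Lbp had their highest level in Intermediate. Itih4 was at 128, 198 and 18.4 FPKM, so that Intermediate was 10.8 times (10.3 to 11.2) and Grape-like 6.95 times (6.66 to 7.27) the Round-like level. Lbp was at 45.8, 173 and 105 FPKM, and was the one member lower in Grape-like than in Round-like, 2.28 times (2.21 to 2.37).

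Il6ra was at 5.11 FPKM in Grape-like, 1.53 in Intermediate and 1.09 in Round-like, a ratio of 4.70 (3.93 to 5.65) between the first and the last. Il6st was at 80.1, 38.2 and 35.9 FPKM and was 2.23 times (2.17 to 2.29) higher in Grape-like than in Round-like. Both receptor chains separated Grape-like from the other 2 libraries. Stat3 varied least, at 51.6, 48.9 and 43.0 FPKM, with a log2 difference of 0.26 between the first and the last. Socs3 was at 28.5, 19.2 and 12.6 FPKM, 2.26 times (2.12 to 2.41) higher in Grape-like than in Round-like. With median-ratio scaling, 2 members in place of 4 passed a log2 difference of 1 in Grape-like against Intermediate, since Saa3 came to 0.93 and Il6st to 0.98.

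**Figure D4:**
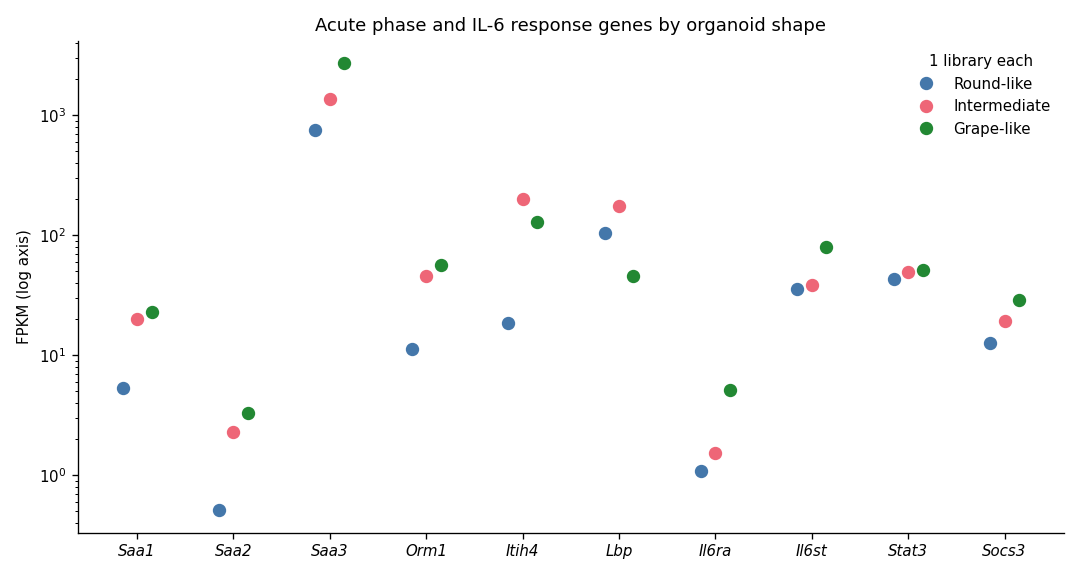
FPKM (log axis) of the 10 members in the Smart-Seq libraries of Round-like, Intermediate and Grape-like Hep-Orgs at P0. Each point is 1 library, without replicates. Saa3 lies between 747 and 2716 FPKM, and Lbp is the member with its lowest point in Grape-like, at 45.8 FPKM.

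Markers of other liver cells moved with the shape. Counts are again of a log2 difference of at least 1. By that much, 12.9% of all genes were higher and 8.82% lower in Grape-like than in Round-like. All 10 Kupffer cell and macrophage markers were higher in Grape-like than in Round-like, and their summed level was 9488 FPKM in Grape-like, 2747 in Intermediate and 1506 in Round-like. Lyz2, the lysozyme of macrophages, was at 5942, 1792 and 887 FPKM, and Vsig4, a marker of the same list, at 555, 105 and 68.4. Also higher in Grape-like than in Round-like were 7 of 8 endothelial markers (summed level 164, 70.3 and 31.1 FPKM), 7 of 8 stellate cell markers (1362, 351.5 and 303) and the 3 blood and neutrophil markers above 1 FPKM (list sum 36.5, 13.2 and 6.01). The 10 hepatocyte markers summed to 5063, 8491 and 1266 FPKM, with 6 higher in Grape-like than in Round-like, and the 8 cholangiocyte markers to 849.8, 3385 and 2796, with 7 lower. Of 8 proliferation genes 2 were lower, 1 with TPM and 0 with median-ratio scaling. The macrophage, endothelial, stellate and blood sums all had the order of Saa1, Saa2, Saa3, Orm1, Il6ra, Il6st, Stat3 and Socs3. The summed hepatocyte level had the order of Itih4, and the summed cholangiocyte level that of Lbp. With 1 library per shape, these orders do not tell the cell types apart. The part of these cells in the levels of the members was not tested.

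Of the IL-6 family ligands, Il6 was at 0.613, 0.130 and 0.239 FPKM, Osm at 1.18, 0.293 and 0.0933, and Il27 at 0.420, 0 and 0.0209 in Grape-like, Intermediate and Round-like. Clcf1 was at 3.94, 8.77 and 13.1 FPKM, Ctf1 at 0.255, 2.21 and 2.36, Lif at 1.89, 5.41 and 3.43, Il11 at 0, 0.575 and 0.267, and Cntf at 0.124, 0.391 and 0.288. Among the 4 of these 8 with at least 1 FPKM in a library, 2 (Clcf1 and Ctf1) were lower in Grape-like than in Round-like and none was higher by a log2 difference of 1. Osm, higher in Grape-like, fell just short of it, and passed with a pseudocount of 0.1, with TPM and with median-ratio scaling. The shares of all genes past that difference were 12.9% higher and 8.82% lower, for this count and those that follow. Of 5 other receptors 4 were higher, with Il11ra1 at 31.7 against 9.24 FPKM and Il27ra at 2.68 against 0.669. Of 12 kinases, phosphatases and inhibitors only Ptpn6 was past that difference, at 84.0 against 22.1 FPKM, and of 12 factors and targets induced by Stat3 only Myc, at 15.7 against 44.5. With 1 of 12, neither count stands out from the shares of all genes. A pseudocount of 0.1 gave 3 higher kinases, phosphatases and inhibitors, and TPM gave 2. Of 24 other positive acute phase genes 16 were higher and 1 lower, and with median-ratio scaling 16 were higher and 0 lower. Itih3 was at 16.6 against 1.34 FPKM, Apcs, the serum amyloid P component, at 46.7 against 5.62, and C-reactive protein, Crp, at 19.6 against 42.0. Of 8 negative acute phase genes 7 were higher, with Apoa1 at 474 against 36.4 FPKM and Alb at 3649 against 565. Of 16 genes of IL-1, lipopolysaccharide and NF-kB signalling 4 were higher, among them Il1a at 40.1 against 7.85 FPKM and Ly96 at 33.1 against 11.4.

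The hepatocyte table asks how the members differ between Pri-Hep and Hep-Orgs and between passages of Hep-Orgs. No member passed the threshold in any of the 7 comparisons with limma, and 6 of the 10 were tested. In Hep-Orgs against Pri-Hep 0 of 10986 genes were called, and 1 of the 6 tested members had an unadjusted p under 0.05. The background was 0.00910% of genes for P1 and for P5 against Pri-Hep, 0% for P10 against Pri-Hep, for P5 against P1 and for P10 against P1, and 0.0273% for P10 against P5, so that a count of 0 members says little about them. Between 1 and 2 of the tested members had an unadjusted p under 0.05 in each comparison. Over all genes, 436 to 1266 had an unadjusted p under 0.05, and limma-voom on the recovered fragments called 0 to 39. With limma-voom 1 member was called, in P10 against P1 only.

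The secreted proteins were at opposite ends of the range in these 12 libraries. Saa2 had no fragment in any of them, Saa1 had 1 fragment in each of 2 Hep-Orgs P5 libraries and none elsewhere, and Orm1 had 0 to 2 fragments. Saa3 was between 0.377 and 0.589 FPKM, from 15 to 31 fragments. Itih4 was between 1.91 and 2.49 FPKM and Lbp between 139.9 and 152, where it ranked 223 to 245 among all genes. Lbp was at 142 ± 1.75 FPKM in Pri-Hep, 148 ± 4.46 in Hep-Orgs P1, 148 ± 1.28 in P5 and 142 ± 1.13 in P10 (SD, n = 3). Every P1 and P5 library was above every Pri-Hep and P10 library in Lbp. With limma the adjusted p of these comparisons was 0.374 to 0.493. Hep-Orgs differed from Pri-Hep by a log2 fold change of 0.04 in Lbp (adjusted p = 0.543) and 0.03 in Itih4 (adjusted p = 0.913, 95% interval -0.09 to 0.16).

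Il6ra was between 8.83 and 9.86 FPKM, Il6st between 37.3 and 39.3 and Stat3 between 21.2 and 22.5 in the 12 libraries. Hep-Orgs differed from Pri-Hep by -0.03 in Il6ra (95% interval -0.10 to 0.04), by -0.02 in Il6st (-0.06 to 0.03) and by 0.03 in Stat3 (-0.01 to 0.08), with adjusted p of 0.816, 0.846 and 0.679. The coefficient of variation over the 12 libraries was 3.35%, 1.74% and 1.97%, where counting error alone gives 2.59%, 1.13% and 1.60%. For Lbp it was 2.58% against 0.874%.

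Among the tested members above 10 FPKM, Socs3 had the highest coefficient of variation, 6.28% against 3.46% from counting error. Itih4, below that level, had 8.85% against 8.03%. Relative to counting error Lbp varied most, with a variance ratio of 8.82 beside 3.24 for Socs3. Socs3 was at 15.5, 14.7 and 15.6 FPKM in Pri-Hep, 15.9, 16.9 and 17.0 in Hep-Orgs P1, 15.3, 15.8 and 15.4 in P5 and 14.7, 14.0 and 14.1 in P10. Every P10 library was below every P1 and P5 library. From P1 to P10 the log2 fold change was -0.21 (SE 0.03, unadjusted p = 4.5e-05, adjusted p = 0.119, 95% interval -0.28 to -0.13). With limma-voom the same difference was -0.22 and passed (adjusted p = 0.0373), and with a replicate block the adjusted p was 0.316. Hep-Orgs as a whole differed from Pri-Hep by 0.01 (adjusted p = 0.925).

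**Figure D5:**
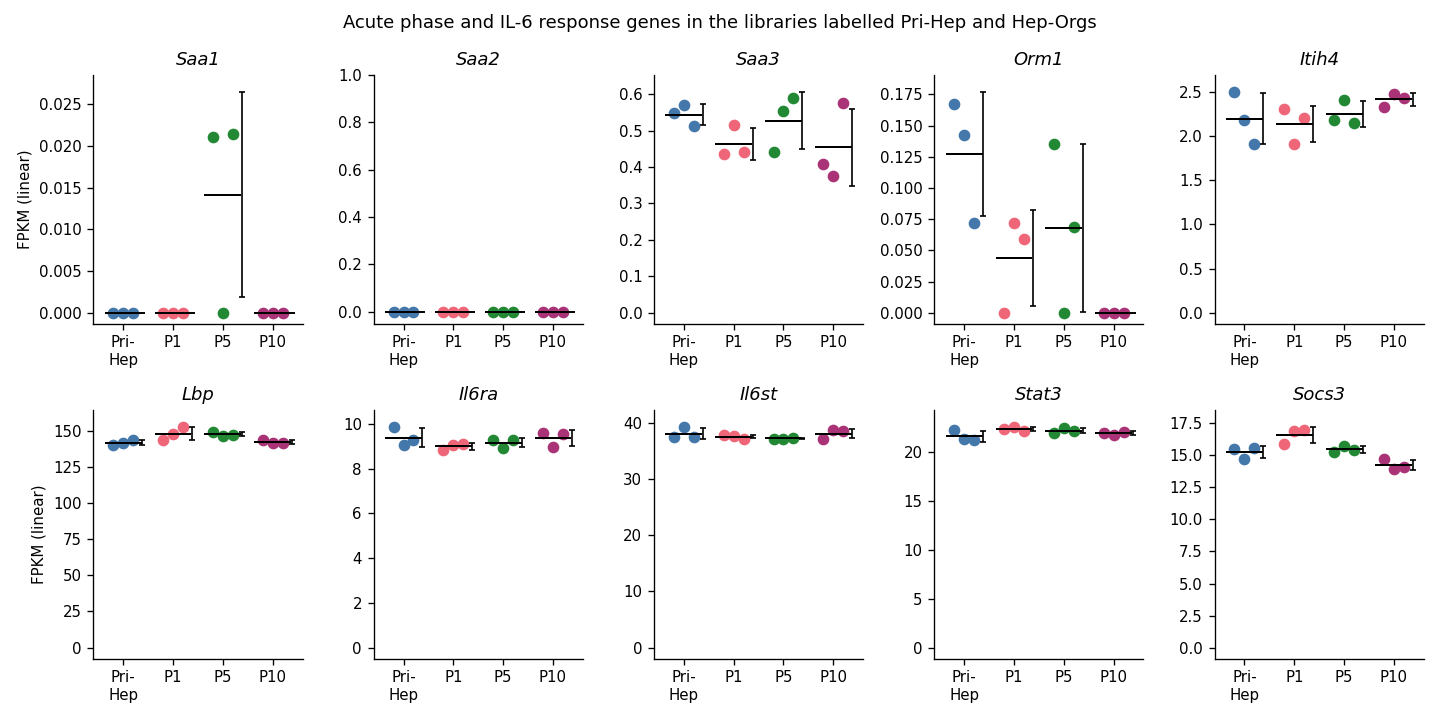
FPKM (linear axis, one scale per gene) of the 10 members in the libraries labelled Pri-Hep and Hep-Orgs P1, P5 and P10. Each point is 1 library, the horizontal line is the mean of 3 libraries and the bar is the SD. Saa2 is at 0 in all 12 libraries, Orm1 and Saa1 hold 0 to 2 fragments, and Socs3 runs from 14.0 to 17.0 FPKM.

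Il6 was near 0 here too, at most 0.0151 FPKM, with Osm at most 0.0313, Il27 at most 0.0539, Il11 at most 0.281 and Cntf at most 0.531, while Clcf1 was between 6.09 and 7.64, Ctf1 between 2.41 and 3.87 and Lif between 2.44 and 2.95. Other acute phase genes covered a wide range of levels, with Lcn2 between 2502 and 2739, C3 between 1457 and 1532 and Fga between 277 and 297 FPKM beside Hp between 10.3 and 13.2 and Hpx between 0.441 and 0.807. These 5 were chosen after their values were seen. In none of the 7 comparisons was a gene of any listed pathway or marker set called, over 3 ligands, 3 other receptors, 11 kinases, phosphatases and inhibitors, 12 factors and targets of Stat3, 16 positive and 7 negative acute phase genes and 14 genes of IL-1, lipopolysaccharide and NF-kB signalling that were tested. Of 10 Kupffer cell and macrophage markers 7 or 8 were at 0 in each group, among them Clec4f, Vsig4, Cd5l, Adgre1, Marco, Timd4 and C1qa, and the list summed to 7.34 to 9.86 FPKM. The endothelial list summed to at most 0.319, the stellate list to 6.47 to 7.09 and the blood and neutrophil list to at most 1.09 FPKM. The proliferation genes summed to 46.8 to 52.1 FPKM and the cholangiocyte markers to 3712 to 3930.

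Side by side, as CPM (the fragments of a gene scaled to library depth, without its length), Saa3 differed widely between the tables. It had 0.981 to 1.54 CPM in the hepatocyte table, 21.1 to 27.9 in Cho-Orgs P0, 1.33 to 2.69 in Cho-Orgs P5 and P10, and 397 to 1442 in the Smart-Seq libraries. Itih4 had 7.06 to 9.26 CPM in the hepatocyte table, 272 to 532 in Cho-Orgs P0, 0.0262 to 2.20 at P5 and P10, and 58.2 to 627 in Smart-Seq. Il6ra had 76.6 to 85.7, 1.91 to 7.76 over all Cho-Orgs and 3.67 to 17.3, and Il6st 413 to 437, 105 to 215 and 205 to 458. Stat3 had 202 to 215, 157 to 229 and 198 to 238 CPM in the same order. The tables were normalised apart and the length counted for a gene differed between them, for Il6ra 8642 bases in the hepatocyte table and 3377 in the others, so these values were not tested against each other. Amplified Smart-Seq libraries and bulk poly(A) libraries cannot be told apart from the shapes and passages they hold.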

How the data were processed

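RNA was sequenced from 24 mouse libraries, 21 bulk poly(A) libraries and 3 Smart-Seq libraries. The deposited values are FPKM per gene, which the authors made from reads aligned to mm10. The submitters' processing notes name featureCounts 2.0.3 and edgeR 3.40.2, and the aligner is not given in the sources used here. No raw counts were used. Whole fragments were recovered from the FPKM steps (within 0.04 fragment) and served depth, counting intervals and an alternative test.

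Each bulk table was fitted apart with limma 3.58.1 in R 4.3.3 (trend, two-sided) on log2(FPKM + 1), over genes that reached an FPKM of 1 in 3 or more libraries, 10986 in the hepatocyte and 11593 in the cholangiocyte table. Adjusted p-values are Benjamini-Hochberg over all genes tested, with a threshold of 0.05. Fold changes on this scale understate the change of low genes, and plain folds are ratios of mean fragments scaled to depth. The fits were also run on simulated data with the same small biological spread for every gene and few changed genes. Cho-Orgs differ from that setting, so it checks the calculation and not the calls. Smart-Seq groups hold 1 library each and got no test. Intervals there are exact 95% intervals of the ratio of fragments, and these and the limit of 3 fragments cover counting error only. Python 3.11.15 with scipy 1.17.1 was used for the rest.

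Replicate numbers stand for 3 mice in the study's legends, whereas its methods speak of independent cultures. Libraries with the same number did not deviate together (median r -0.01 over 9 pairs in Cho-Orgs and 0.00 over 18 in the hepatocyte table), and a replicate block was an alternative. Other alternatives were the pseudocount, filters, TPM and median-ratio scaling, no trend, limma-voom, fits of only the groups compared and leaving out each replicate.

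The members and lists were chosen with earlier results of these data known. All members are named. Of each further list up to 4 called genes per direction between the first and last passage are named, up to 2 per direction in Smart-Seq, and all ligands.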

Additional observations from a re-analysis of the deposited data

How the results depend on the processing

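In Cho-Orgs, 96 of 97 alternative values of the members' log2 fold changes kept direction and side of the threshold for P5 against P0, 96 of 97 for P10 against P0 and 90 of 97 for P10 against P5. With each replicate left out in turn, Socs3 in P10 against P5 ran from -0.201 to 0.0181, the latter without replicate 2. In Hep-Orgs against Pri-Hep 62 of 65 did, and the others turned sign near zero, Itih4 to -0.0299 without replicate 3, Il6st to 0.00048 and Socs3 to -0.0146 without replicate 2, within ranges of -0.0299 to 0.0978, -0.0271 to 0.00048 and -0.0146 to 0.0308. The cause was not tested. Median-ratio factors were the same, 1.00, in all 12 hepatocyte libraries, so that this scaling was bound to leave these values almost unchanged. Limma-voom called 1 member in Hep-Orgs P10 against P1. Median-ratio scaling left 2 members past a log2 difference of 1 in Grape-like against Intermediate. Pairing by a replicate block brought Saa1 in P10 against P5 of Cho-Orgs past the threshold (adjusted p = 0.0334) and changed no other member's call. Genes called in Hep-Orgs P1 and P5 against Pri-Hep went from 1 each to 0 with the block, and in P10 against P5 from 3 to 0. The filter on a mean FPKM of at least 5 left out Saa1 and Il6ra in Cho-Orgs. Depth limits Saa1, Saa2, Saa3 and Orm1 in the hepatocyte table, where they hold 2, 0, 290 and 10 fragments over 12 libraries.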
